A study of Saccharomyces cerevisiae with 6 samples.

Results

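The 30 genes of ergosterol synthesis and sterol handling in Saccharomyces cerevisiae were followed through an RNA co-immunoprecipitation with the antibody J2, which recognises double-stranded RNA (dsRNA) whatever its sequence. They are the protein-coding features whose name is ERG and a number, together with HMG1, HMG2, MVD1, IDI1, NCP1, CYB5, ARE1, ARE2, UPC2, ECM22 and HES1, and they make up 30 of 6316 protein-coding features and of 15753 features in all. The rule used names alone and no measured value. All 6 libraries came from one genotype, wild type in the S288C background, grown at 25 °C with no further treatment. Purified total RNA was given J2 and beads. RNA washed and taken off those beads made the 3 J2 eluate libraries. What had not bound was cleared with J2 once more, and the RNA still in solution made the 3 J2 unbound libraries. The comparison asks which RNAs J2 held back. No library of input RNA or of beads without antibody was used here, and because the antibody met RNA that had already been purified, pairing inside the cell and pairing after extraction cannot be told apart.

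Ergosterol is the main sterol of fungal membranes, where it holds the place that cholesterol has in animals. Its synthesis starts from acetyl-CoA, runs through mevalonate to farnesyl diphosphate, the branch point to haem A, ubiquinone, dolichol and prenylated proteins, then through squalene to lanosterol, and ends with a series of demethylations, reductions and desaturations in the endoplasmic reticulum. Several of the enzymes are targets of antifungal drugs. The transcription factors Upc2 and Ecm22 bind sterols and switch the genes on when sterol is scarce, and surplus sterol is stored as steryl esters.

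Levels are normalised read counts, that is reads divided by a size factor for each library. Fold changes are eluate over unbound on the scale log2(normalised count + 1), and a call is a limma p under 0.05 after Benjamini-Hochberg adjustment over all 15753 features. Only features whose normalised counts averaged more than 40 are read. All 30 sterol genes passed that mean, and their lowest read number in a library was 25 (HES1). The feature counts of a library summed to between 18645818 and 43141091. A floor of 3 reads corresponds to a normalised count between 1.47 and 5.31. HES1 had 88, 79 and 72 reads in the unbound libraries and 40, 31 and 25 in the eluates, so its levels are the least precise of the 30.

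With the size factors of the deposited values, most sterol mRNAs were scarcer in the J2 eluate than in the unbound fraction. ERG5 and ERG24 were more abundant there. How many genes were called depended on that scaling, as given below. Of the 30, 24 were reduced in the eluate, 2 were enriched and 4 were not called. Of the 5724 mRNAs that passed the same mean, 74.4% were called reduced and 8.00% enriched. The 24 reduced genes are 80.0% of the group and the 2 enriched genes 6.67%, both near those backgrounds. In 25 sterol genes all 3 eluate libraries lay below all 3 unbound libraries, against 75.9% of mRNAs, in 2 all lay above, against 8.68% of mRNAs, and in 3 the groups overlapped. The median log2 fold change of the sterol genes was -1.36, -1.27, -1.55 and -1.36 when eluate 1, 2 and 3 were each set against the unbound library of that number, and that of all mRNAs was -1.39. The sterol genes fell evenly on the 2 sides of it, 15 below and 15 above. As a whole the group therefore stood where the average mRNA stood, and what the data show lies in the spread between its members, a 46.8-fold range from IDI1 at -3.93 to ERG5 at 1.62 on the log2 scale. The standard deviation of the fold changes over the 30 genes was 1.27, beside 1.37 over all mRNAs.

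**Figure D1:**
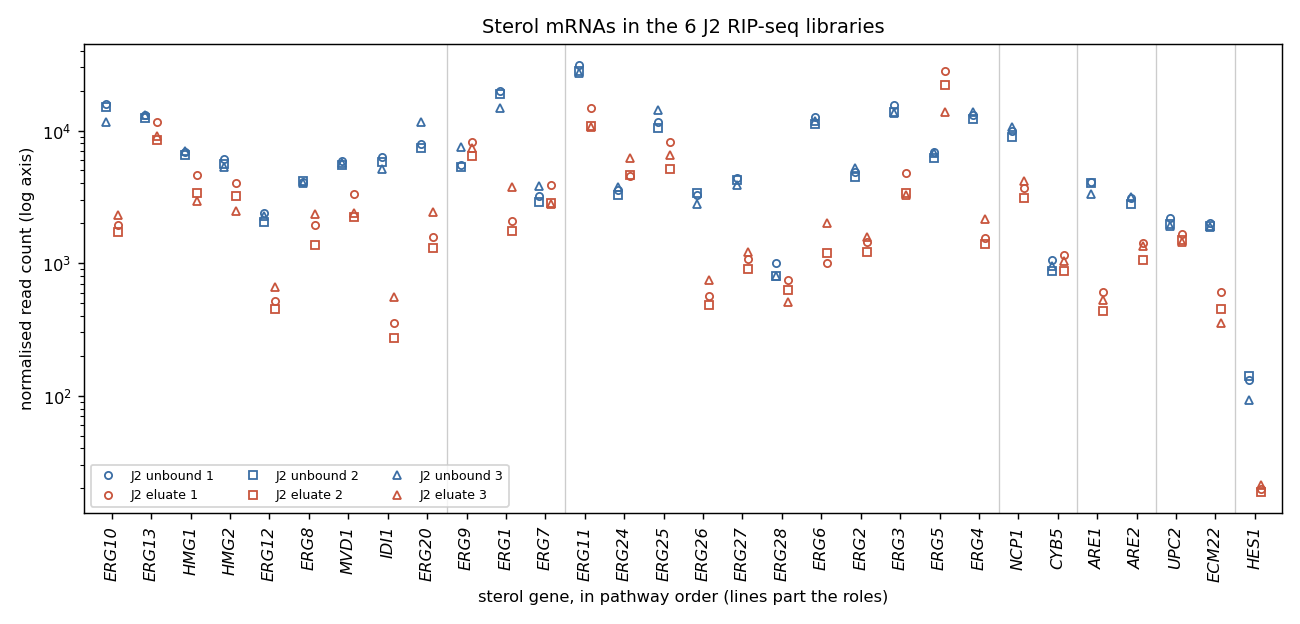
Normalised read count (log axis) of each of the 30 sterol genes in the 3 J2 unbound libraries (blue) and the 3 J2 eluate libraries (red), in pathway order, with a symbol for each replicate number and no mean drawn. The eluate points of ERG5 and ERG24 lie above their unbound points, those of ERG9, ERG7 and CYB5 overlap them, and those of the other 25 genes lie below.

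Shares of the libraries need no size factor. Reads of the 30 genes made up 0.645%, 0.638% and 0.625% of all feature counts in unbound 1, 2 and 3 and 0.566%, 0.552% and 0.571% in eluate 1, 2 and 3. The share was a little lower in every eluate library, 0.563% ± 0.0102 (SD, n = 3) against 0.636% ± 0.0104. Inside it the composition turned over. ERG5 took 3.03%, 2.96% and 3.11% of the sterol reads in the unbound libraries and 23.3%, 23.8% and 14.2% in the eluates. ERG11 took 13.2% ± 0.639 and 11.6% ± 0.689. ERG11 was the most abundant sterol mRNA per kilobase of feature in the unbound fraction, at 12950 normalised counts per kb, and HES1 the least abundant, at 71.4. In the eluate ERG5 led with 10306 normalised counts per kb, followed by ERG11 with 5415 and ERG13 with 5196.

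How far down a sterol mRNA lies in the eluate depends on how the libraries are scaled against each other. The deposited size factors equal the median of ratios over all features, coding and noncoding. With trimmed means of M values (TMM) the median of all mRNAs was -1.23 on the log2 scale, with total counts -0.48, and with the median of ratios over nuclear mRNAs alone -0.07. The sterol median lay 0.04 above the mRNA median under each of these scalings and under the deposited one. The number of sterol genes called reduced was 24, 22, 16 and 14 and the number called enriched 2, 3, 8 and 10 under the deposited, TMM, total count and nuclear mRNA scalings. Under all 4 scalings 14 genes were reduced, namely ERG10, ERG12, IDI1, ERG20, ERG1, ERG26, ERG27, ERG6, ERG2, ERG3, ERG4, ARE1, ECM22 and HES1, and 2 were enriched, ERG5 and ERG24. In 11 genes the sign turned from minus to plus under the nuclear mRNA scaling. These are ERG13, HMG1, HMG2, ERG8, MVD1, ERG7, ERG11, ERG25, ERG28, ARE2 and UPC2, called scaling-dependent from here on. Among them ERG13, HMG2, ERG7, ERG25, ERG28 and UPC2 were called enriched under the nuclear mRNA scaling, as were ERG9 and CYB5. All of these but HMG2 and ERG25 were called enriched under total counts as well. A scaling moved all genes by nearly the same step.

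**Figure D2:**
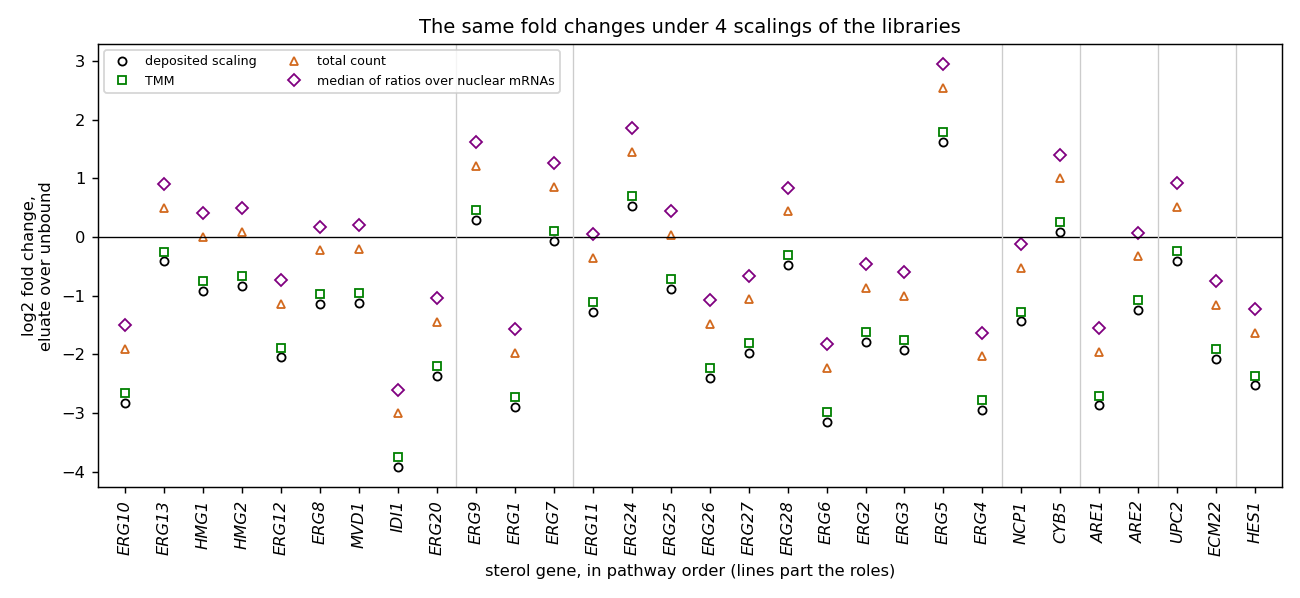
Log2 fold change of each sterol gene, eluate over unbound, under the deposited scaling (circles), TMM (squares), total count (triangles) and the median of ratios over nuclear mRNAs (diamonds). Every gene moves up by about the same step from one scaling to the next, ERG5 and ERG24 stay above 0 throughout, and 11 genes cross 0 between the first and the last.

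The 9 genes from acetyl-CoA to farnesyl diphosphate held 8 reduced mRNAs and 1 that was not called. Their median log2 fold change was -1.15. ERG10, the acetoacetyl-CoA thiolase that opens the pathway, had normalised counts of 15783, 15101 and 11700 in unbound 1, 2 and 3 and 1927, 1722 and 2327 in the eluates. It fell by 2.83 ± 0.19 (SE, n = 3 against 3) on the log2 scale, limma adjusted p = 1.12e-06, with no overlap between the groups. ERG13, the HMG-CoA synthase of the next step, stood apart from it with 13170, 12492 and 13041 unbound and 11660, 8477 and 9106 in the eluates. Its log2 fold change of -0.42 ± 0.19 was scaling-dependent and was not called (limma adjusted p = 0.0691), although all eluates lay below all unbound libraries.

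IDI1, the isopentenyl diphosphate isomerase, was the most strongly reduced of the 30. Its normalised counts were 6364, 5766 and 5092 in the unbound libraries and 352, 271 and 553 in the eluates, and the groups were far apart. The fold change was -3.93 ± 0.25 on the log2 scale, 15.2-fold lower in the eluate, limma adjusted p = 7.63e-07. Only 1.43% of mRNAs had a lower fold change. ERG20, the farnesyl diphosphate synthase at the branch point, had 7979, 7403 and 11576 unbound and 1564, 1310 and 2439 in the eluates, with the highest library of each group being the third. It fell by 2.36 ± 0.26, limma adjusted p = 2.36e-05.

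The 3 enzymes between IDI1 and the reductases are a pair of kinases and a decarboxylase. ERG12, the mevalonate kinase, fell by 2.06 on the log2 scale under the deposited scaling and was reduced under the other 3 scalings as well. ERG8, the phosphomevalonate kinase, was scaling-dependent and had 4078, 4133 and 4048 unbound and 1943, 1381 and 2341 in the eluates. MVD1, the diphosphomevalonate decarboxylase, was likewise scaling-dependent, with 5938, 5460 and 5669 unbound and 3330, 2227 and 2393 in the eluates. Under the deposited scaling ERG8 and MVD1 lay at -1.15 and -1.12, close to the mRNA median.

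The 3 genes of squalene synthesis, epoxidation and cyclisation held 1 reduced mRNA and 2 that were not called. ERG9, the squalene synthase that commits farnesyl diphosphate to sterols, had 5515, 5274 and 7483 unbound and 8251, 6483 and 7406 in the eluates, and the groups overlapped. Its log2 fold change was 0.29 ± 0.20 (limma adjusted p = 0.209), and it was called enriched under TMM (0.45), total count (1.21) and nuclear mRNA scaling (1.61). ERG1, the squalene epoxidase and target of terbinafine, had 19916, 19018 and 14700 unbound and 2082, 1734 and 3739 in the eluates. It fell by 2.90 ± 0.28, limma adjusted p = 9.44e-06. ERG7, the lanosterol synthase, lay at -0.06 ± 0.19 (limma adjusted p = 0.778), scaling-dependent and with overlapping groups, and without unbound 3, eluate 2 or eluate 3 its sign turned to 0.045, 0.0058 and 0.020.

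The 11 genes from lanosterol to ergosterol held the widest range, with 9 reduced and 2 enriched mRNAs and a median of -1.79. ERG5, the cytochrome P450 that desaturates the sterol side chain near the end of the pathway, was the most enriched sterol mRNA. Its normalised counts were 6916, 6230 and 6766 in the unbound libraries and 27960, 22111 and 13771 in the eluates. Every eluate lay above every unbound library, and eluate 3 lay well below the other eluates. The log2 fold change was 1.62 ± 0.26, 3.08-fold higher in the eluate, limma adjusted p = 0.000281, and 97.1% of mRNAs had a lower one. Across the alternatives run it stayed between 1.40, without eluate 1, and 2.95, under nuclear mRNA scaling, and it was called in all of them, with adjusted p up to 0.00211.

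ERG24, the sterol reductase that acts after the first demethylation and a target of morpholine fungicides, was the other enriched mRNA. It had 3554, 3286 and 3728 unbound and 4576, 4600 and 6192 in the eluates, so the groups did not overlap. The log2 fold change was 0.53 ± 0.18, limma adjusted p = 0.0228. The call was lost without unbound 1 (adjusted p = 0.0758) and without unbound 2 (adjusted p = 0.0912). ERG5 and ERG24 thus stood above 97.1% and 91.8% of mRNAs by fold change.

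ERG11, the other cytochrome P450 of the pathway and the target of azole drugs, did not share the position of ERG5. It had 31086, 28306 and 27047 unbound and 14765, 10821 and 10560 in the eluates, well apart. Its fold change of -1.27 ± 0.21 (limma adjusted p = 0.000353) was scaling-dependent and close to that of the median mRNA. ERG25, the sterol methyl oxidase, was scaling-dependent too, with 11528, 10436 and 14325 unbound and 8195, 5095 and 6558 in the eluates, a log2 fold change of -0.88.

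ERG6, the sterol methyltransferase that sets ergosterol apart from cholesterol, was the most reduced of the late genes. Its counts were 12726, 11257 and 11806 unbound and 1003, 1194 and 1996 in the eluates, so that it fell by 3.15 ± 0.24 on the log2 scale, 8.91-fold, limma adjusted p = 2.40e-06. ERG4, the reductase of the last step, had 13039, 12237 and 13708 unbound and 1546, 1398 and 2169 in the eluates. It fell by 2.95 ± 0.20, limma adjusted p = 1.00e-06. ERG4 and ERG5, which catalyse neighbouring steps at the end of the pathway, therefore lay near opposite ends of the range.

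ERG26, the dehydrogenase of the demethylation complex, fell by 2.41, and ERG27, its keto reductase, fell by 1.98. ERG27 had 4397, 4246 and 3911 unbound and 1080, 896 and 1223 in the eluates. ERG2, the sterol isomerase, had 4866, 4505 and 5196 unbound and 1445, 1220 and 1573 in the eluates. ERG3, the sterol ring desaturase, had 15732, 13729 and 13619 unbound and 4808, 3402 and 3262 in the eluates. ERG2 fell by 1.79 and ERG3 fell by 1.93 on the log2 scale, and all 4 were reduced under each of the 4 scalings. ERG28, the scaffold that tethers the demethylation complex to the membrane, was much closer to no change, with 1007, 801 and 803 unbound and 745, 629 and 506 in the eluates. Its log2 fold change of -0.48 was scaling-dependent, and the limma adjusted p of 0.0464 passed the threshold only narrowly. The call was lost without unbound 1, 2 or 3 (adjusted p = 0.189, 0.0692 and 0.0566) and without eluate 2 or 3 (0.0878 and 0.105). It was also lost with DESeq2 (0.0619), TMM scaling (0.184) or edgeR (0.207). Under total count and nuclear mRNA scaling ERG28 was called enriched instead (limma adjusted p = 0.0476 and 0.00253).

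**Figure D3:**
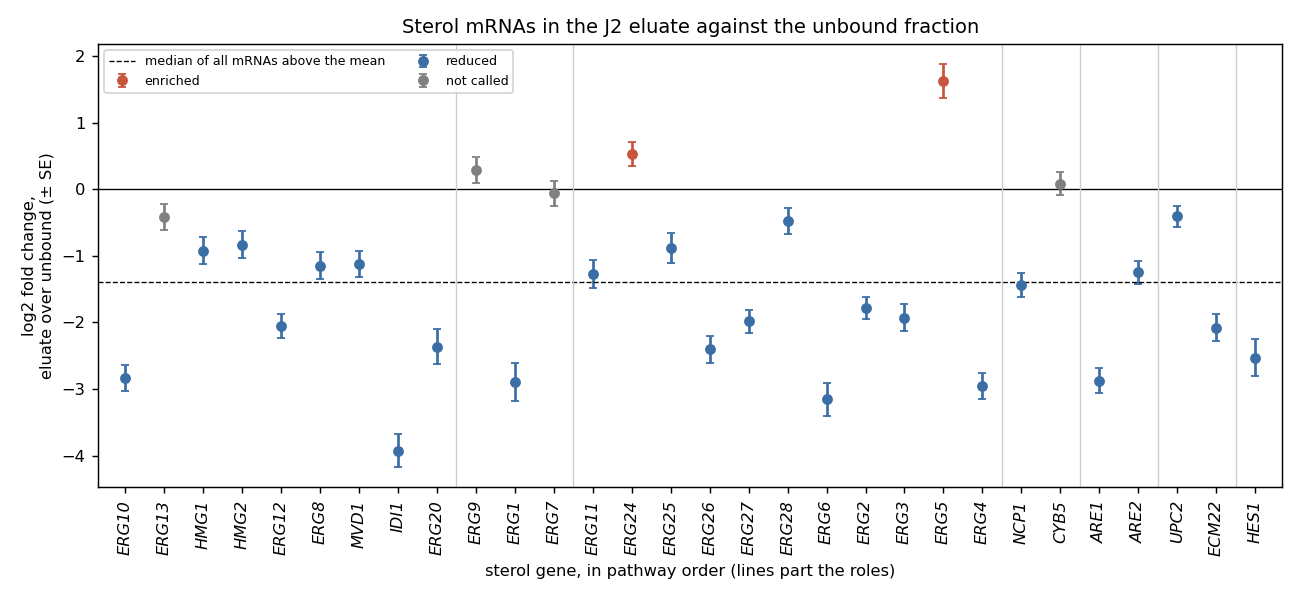
Log2 fold change, eluate over unbound, with its standard error from the fit over 3 against 3 libraries, for the 30 sterol genes in pathway order under the deposited scaling, coloured by call. The dashed line is the median of all mRNAs above the mean, -1.39, and 15 genes lie on each side of it; ERG5 at 1.62 and IDI1 at -3.93 are the extremes.

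Of the electron donors of the pathway, NCP1 was reduced and CYB5 was not called. NCP1, the reductase that feeds both cytochromes P450, fell by 1.44 on the log2 scale, with adjusted p = 0.449 under nuclear mRNA scaling in limma. CYB5, the cytochrome b5 that serves several of the late oxidations, had 1060, 872 and 945 unbound and 1144, 872 and 1035 in the eluates. The groups overlapped, and its fold change of 0.08 ± 0.17 (limma adjusted p = 0.685) became -0.0083 without eluate 1. CYB5 was called enriched under total count (0.997) and nuclear mRNA scaling (1.40).

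HMG1 and HMG2 encode the HMG-CoA reductases, the controlled step of the mevalonate branch and the counterpart of the statin target. ARE1 and ARE2 encode the acyltransferases that make steryl esters, and UPC2 and ECM22 the sterol-sensing transcription factors. HES1 belongs to the oxysterol-binding proteins, and its closest relative KES1, which is not among the 30, was set beside it. These pairs were compared because similar genes could share reads. Their translated coding sequences were identical at 62.9% of 1033 aligned residues for the reductases, 49.5% of 608 for the acyltransferases, 56.1% of 759 for the transcription factors and 69.7% of 433 for HES1 and KES1. All windows of 50 bases, the read length, were unique in the genome for all 30 genes and for KES1. The longest run of identical bases between the coding sequences of each pair is shown in capitals with 12 bases on each side, on the sense strand of sacCer3 (S288C reference assembly R64).
HMG1, chrXIII:116671-116717, minus strand: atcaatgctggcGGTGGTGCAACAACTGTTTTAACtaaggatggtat
HMG2, chrXII:1034796-1034842, plus strand: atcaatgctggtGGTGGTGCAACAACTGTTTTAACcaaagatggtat
ARE1, chrIII:213378-213418, plus strand: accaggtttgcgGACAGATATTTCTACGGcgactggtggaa
ARE2, chrXIV:666884-666924, plus strand: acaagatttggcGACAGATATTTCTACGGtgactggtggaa
UPC2, chrIV:892388-892440, plus strand: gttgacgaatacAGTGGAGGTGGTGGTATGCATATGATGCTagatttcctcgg
ECM22, chrXII:600068-600120, minus strand: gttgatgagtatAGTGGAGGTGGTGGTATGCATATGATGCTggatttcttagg
HES1, chrXV:783047-783091, plus strand: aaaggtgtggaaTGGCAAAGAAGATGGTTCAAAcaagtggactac
KES1, chrXVI:278599-278643, minus strand: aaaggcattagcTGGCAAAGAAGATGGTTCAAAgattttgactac
The runs were 23, 17, 29 and 21 bases long, all shorter than a read.

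The reductase mRNAs behaved alike. HMG1 had 6851, 6524 and 7057 unbound and 4651, 3383 and 2959 in the eluates, and HMG2 had 6152, 5585 and 5325 unbound and 4047, 3237 and 2483. Both were scaling-dependent, at -0.92 ± 0.20 and -0.83 ± 0.20 on the log2 scale (limma adjusted p = 0.00198 and 0.00423). The other pairs lay further apart. ARE1 had 4129, 4051 and 3314 unbound and 607, 436 and 529 in the eluates, a log2 fold change of -2.87 ± 0.18. ARE2 had 3084, 2794 and 3160 unbound and 1427, 1052 and 1349 in the eluates, -1.25 ± 0.17 and scaling-dependent. Thus both acyltransferase mRNAs fell under the deposited scaling, ARE1 by more for each of the 3 replicate numbers.

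UPC2 had 2201, 1961 and 1920 unbound and 1670, 1486 and 1442 in the eluates, and ECM22 had 2012, 1910 and 1884 unbound and 608, 448 and 352. At nearly equal unbound levels ECM22 fell by 2.08 ± 0.21, while UPC2, which was scaling-dependent, fell by 0.40 ± 0.16 with limma adjusted p = 0.0390. That call was lost without unbound 1 or 2 (adjusted p = 0.167 and 0.0893) and without eluate 2 or 3 (0.0835 and 0.0520). It was also lost with TMM scaling (0.185) or edgeR (0.203). Under total count and nuclear mRNA scaling UPC2 was called enriched instead (limma adjusted p = 0.0102 and 0.000263). HES1 was the scarcest of the 30, with 131, 140 and 92.8 unbound and 19.7, 18.8 and 21.3 in the eluates, and it fell by 2.53 ± 0.28. KES1 had 11700, 10453 and 13141 unbound and 15477, 11100 and 9624 in the eluates, which overlapped, and its log2 fold change was 0.01 ± 0.22 (limma adjusted p = 0.958). The differences between the genes of a pair were not tested.

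**Figure D4:**
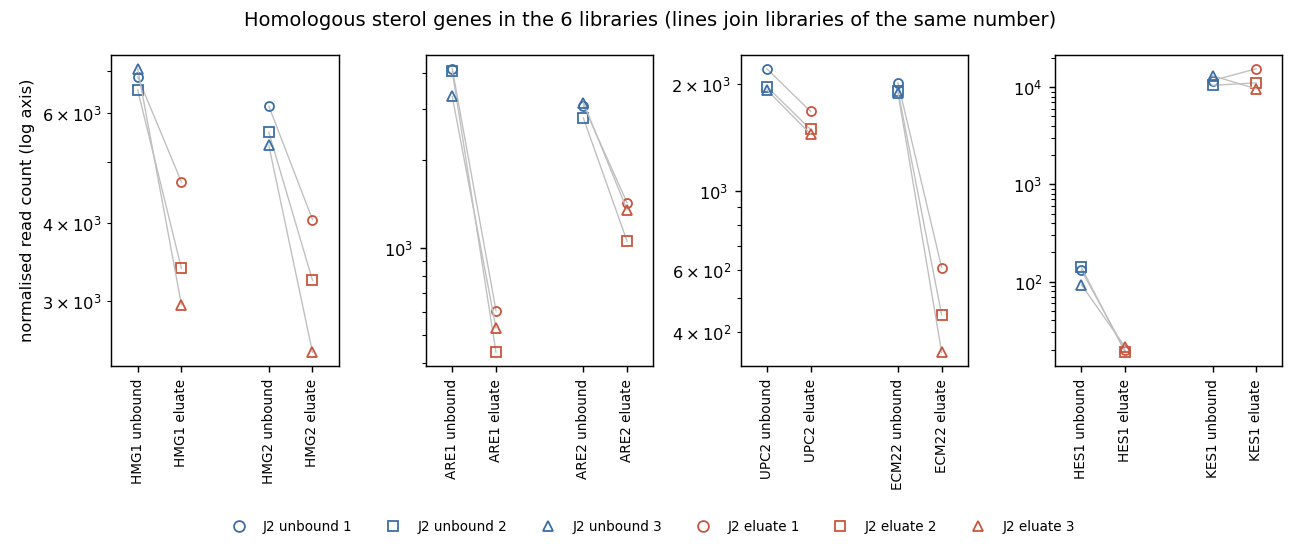
Normalised read count (log axis, scaled separately in each panel) of the 4 pairs of homologous genes in the unbound (blue) and eluate (red) libraries, with a symbol for each replicate number and lines joining libraries of the same number. HMG1 and HMG2 move down together, ARE1 and ECM22 move down further than ARE2 and UPC2 in every pair of libraries, and HES1 falls while KES1 overlaps.

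The table also holds transcripts of the strand opposite the sterol genes: antisense RNAs (asRNAs), Xrn1-sensitive unstable transcripts (XUTs), stable unannotated transcripts (SUTs) and cryptic unstable transcripts (CUTs), together long noncoding RNAs (lncRNAs). A feature was counted as opposite a sterol gene when the shared stretch covered at least 0.5 of either feature. On that rule 27 opposite features above the mean of 40 lay opposite 19 of the 30 genes. Of these, 25 were enriched in the eluate and 2 were not called. The 22 lncRNAs among them, over 17 genes, were called enriched, with log2 fold changes from 1.10 to 4.63, beside 73.1% of all 3623 lncRNA features above the mean. The mean was taken over both groups, and 14 of the 22 passed it only through the eluate, as did 1495 lncRNA features of the whole table, of which 97.1% were enriched. The count of 22 is therefore no support for a rise opposite the sterol genes. With no filter on the mean, 34 of 41 opposite lncRNAs over 28 genes were enriched and 7 were not called, beside 60.9% of all 7609 lncRNA features. By a mean of the unbound libraries above 40, a rule chosen after the values were seen, 8 opposite lncRNAs over ERG13, HMG2, ERG8, ARE2 and UPC2 were left. All 8 were enriched, beside 53.4% of the 2241 lncRNA features that passed the same rule. Several of these lncRNAs overlap on one strand and share reads, 3 opposite HMG2 and 2 opposite UPC2 among the 8, so they are not separate observations. Counts kept the strands apart: antisense4012, which covers the whole of ERG20, had 0.0659% of the ERG20 count in the unbound libraries.

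Sequences from the middle of 4 such overlaps are shown to place them, each inside the coding sequence of the sterol gene and read on its sense strand (sacCer3). The lncRNA holds the complement of each.
ERG2 over CUT786, chrXIII:667940-667999, plus strand: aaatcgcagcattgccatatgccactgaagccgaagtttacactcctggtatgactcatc
HMG2 over SUT713, chrXII:1034464-1034523, plus strand: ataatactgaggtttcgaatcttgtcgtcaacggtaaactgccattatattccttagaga
ERG13 over antisense3314, chrXIII:19787-19846, minus strand: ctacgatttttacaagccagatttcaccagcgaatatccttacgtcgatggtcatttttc
ERG10 over antisense1345, chrXVI:498610-498669, plus strand: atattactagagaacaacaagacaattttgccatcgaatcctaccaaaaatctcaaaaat

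The largest rises were opposite ERG2 and ERG20, themselves reduced mRNAs. CUT786, which shares 517 bases with ERG2, had normalised counts of 4.47, 12.4 and 24.5 in the unbound libraries and 264, 231 and 462 in the eluates. XUT_13R-307, which shares 500 bases with ERG2 and overlaps CUT786, had 5.96, 19.5 and 25.8 unbound and 266, 251 and 484 in the eluates. The feature named Unit299 on the same strand had 16.4, 24.8 and 30.9 and then 368, 358 and 638. Beside ERG2 itself these counts went from 0.284%, 0.352% and 0.495% of the ERG2 count to 22.6%, 23.7% and 32.2%. antisense4012 had 1.49, 12.4 and 3.87 unbound, those of unbound 1 and 3 at or below the floor of 3 reads, and 111, 87.2 and 215 in the eluates, where it reached 7.79% of the ERG20 count.

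Among the mevalonate genes, antisense3647 opposite ERG12 (mean 29.5) and antisense1104 opposite IDI1 (mean 5.66) stayed below the mean of 40. Opposite ERG10, antisense1345 (1264 shared bases) had 17.9, 24.8 and 27.1 unbound and 245, 253 and 410 in the eluates, and its log2 fold change of 3.63 faced the -2.83 of ERG10. Opposite ERG13, antisense3314 had 52.1, 88.6 and 38.7 unbound and 715, 778 and 662 in the eluates (3.65). Opposite HMG1, antisense3333, which covers the whole gene, had 34.3, 39.0 and 23.2 unbound and 135, 151 and 157 in the eluates (2.19). The 3 overlapping lncRNAs opposite HMG2 rose together. SUT713, the longest of them, had 70.0, 85.0 and 104 unbound and 358, 512 and 509 in the eluates (2.40), and XUT_12R-387 and YLR450W-as stood at 2.40 and 2.28. Opposite MVD1, antisense1020 had 17.9, 14.2 and 1.29 unbound, that of unbound 3 below the floor of 3 reads, and 69.8, 78.1 and 96.2 in the eluates (3.23). The smallest rise was opposite ERG8, where antisense3652 had 75.9, 93.9 and 77.3 unbound and 129, 191 and 224 in the eluates (1.10, limma adjusted p = 0.00342). Of the lengths of antisense3314, antisense1020 and antisense3652, 30.1%, 45.6% and 19.1% lay opposite the gene, so their counts also cover other stretches.

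Opposite the late genes ERG11, ERG26 and ERG5 no lncRNA that met the overlap rule reached the mean of 40. Opposite ERG6, antisense3363 had 20.9, 40.7 and 11.6 unbound and 164, 148 and 106 in the eluates (2.61). Opposite ERG4, antisense2031 had 8.93, 10.6 and 14.2 unbound and 135, 128 and 260 in the eluates (3.78). Opposite ERG3, antisense3140 had 5.96, 14.2 and 10.3 and then 63.4, 96.9 and 123 (3.12). These 3 mRNAs were reduced under every scaling. Opposite ERG25, antisense2069 had 20.9, 26.6 and 12.9 unbound and 144, 191 and 302 in the eluates (3.32), and the feature named Unit129 had 13.4, 14.2 and 12.9 and then 150, 197 and 322 (3.88). Opposite ERG28, antisense55 had 16.4, 17.7 and 21.9 unbound and 156, 170 and 179 in the eluates (3.11), by then 26.9% of the ERG28 count. Of the lengths of antisense55 and antisense3140, 31.3% and 38.9% lay opposite the gene, so their counts also cover other stretches.

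Opposite CYB5, an electron carrier, SUT331 had 34.3, 30.1 and 21.9 unbound and 126, 104 and 240 in the eluates (2.33). Opposite ARE2, antisense1010 had 43.2, 58.5 and 52.8 unbound and 250, 240 and 483 in the eluates (2.56). Opposite UPC2, CUT515 had 58.1, 37.2 and 79.9 unbound and 138, 115 and 241 in the eluates (1.47), and the overlapping XUT_4R-364 stood at 1.55. No lncRNA above the mean met the overlap rule opposite their homologues ARE1 and ECM22. The most abundant lncRNA opposite the enriched ERG5, antisense3373, had a mean normalised count of 20.1, below the minimum, and 0.144% of the ERG5 count. For 28 sterol genes an opposite lncRNA met the overlap rule, whatever its mean. Over these genes, the level of that lncRNA relative to the mRNA was set against the fold change of the mRNA. Spearman's rho was 0.15, a description over genes measured in the same libraries. ERG27 and ARE1 were left out, since their opposite lncRNAs, such as antisense3154 (mean 83.3) and antisense3811 (mean 234), shared too few bases. Split by presence instead, the 17 sterol genes with an opposite lncRNA above the mean had a median log2 fold change of -1.12. The 13 sterol genes without one had -2.06, a difference that was not tested. That mean was taken over both groups, so the split itself depends on the eluate counts of the lncRNAs.

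**Figure D5:**
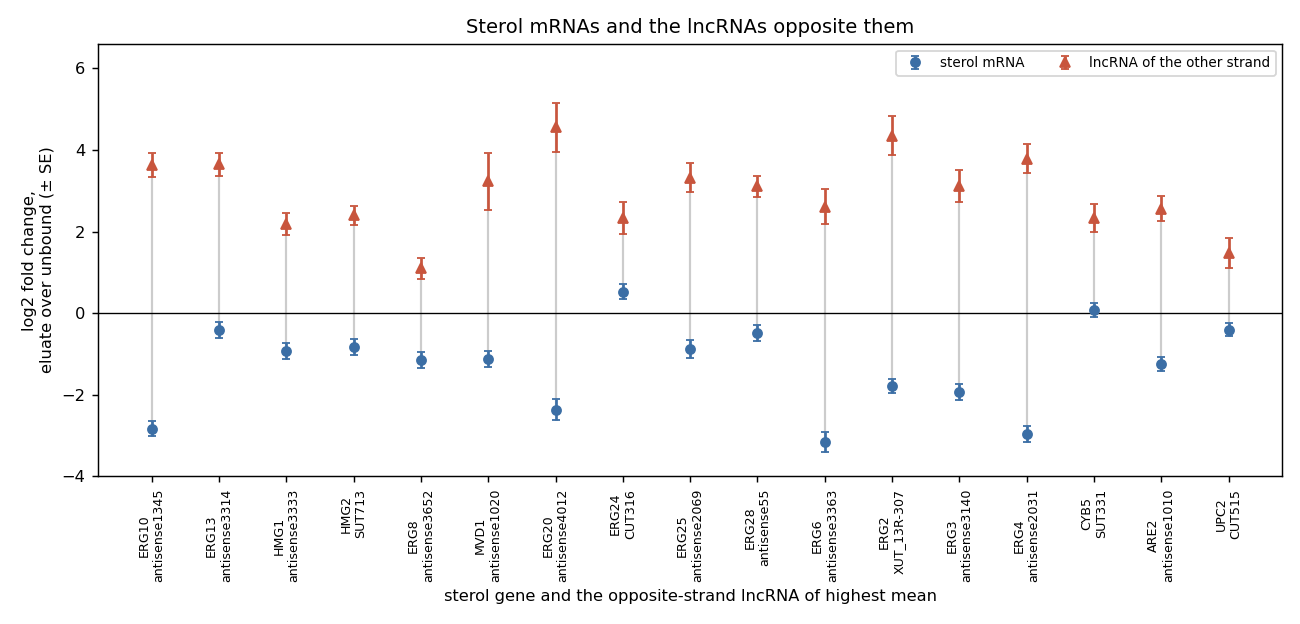
Log2 fold change, eluate over unbound (± SE, 3 against 3 libraries), of 17 sterol mRNAs (blue circles) and of the opposite-strand lncRNA of highest mean that met the overlap rule for each (red triangles). The lncRNAs are those above a mean of 40 over both groups, a filter that favours enriched ones, and lie between 1.10 and 4.56, while 15 of the 17 mRNAs lie below 0 under the deposited scaling.

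Neighbouring mRNAs supplied further opposite sequence. In all, 15 sterol genes shared between 109 and 696 bases with 16 opposite mRNAs above the mean. Of these mRNAs 12 were reduced, 1 enriched and 3 not called, near the 74.4% reduced and 8.00% enriched of all mRNAs. YLR101C passed the mean only through the eluate, with an unbound mean of 33.0. The overlaps of ERG9, ERG24 and IDI1 are shown because these genes stood near the ends of the range. Each sequence is the end of the sterol coding sequence that lies inside the neighbour, with the stop codon in capitals (sacCer3, sense strand).
ERG9 inside CTF8, chrVIII:486150-486179, plus strand: tattatatatacactttacacagagcgTGA
ERG24 inside HCH1, chrXIV:109095-109122, minus strand: ttacaagatcattccatatgtttatTAA
IDI1 inside MRP51, chrXVI:327864-327890, minus strand: gacaggcaaattcatagaatgctaTAA
CTF8, a cohesion factor, shares 581 bases with ERG9 and was the enriched neighbour, with 368, 356 and 307 unbound and 1279, 1274 and 2080 in the eluates, a log2 fold change of 2.13 (limma adjusted p = 1.45e-05). HCH1, a regulator of the chaperone Hsp90, shares 372 bases with ERG24 and was about as abundant, with 3593, 3417 and 3125 unbound and 2370, 2179 and 3269 in the eluates. It was not called (log2 fold change -0.39, limma adjusted p = 0.0845), so the 2 mRNAs of that pair did not move alike. ERG24 also had CUT316 opposite it, with 11.9, 15.9 and 32.2 unbound and 95.9, 72.7 and 129 in the eluates (2.33), and antisense735 (2.97).

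MRP51, a protein of the mitochondrial ribosome, shares 325 bases with IDI1 and was reduced along with it, at -3.50 beside -3.93. Among the genes chosen for their fold changes, overlap with an mRNA was thus seen near both ends of the range. Over the whole group, the 15 genes with such an opposite mRNA had a median log2 fold change of -1.25. The 15 genes without one had -1.93, a difference that was not tested. YLR101C, a protein-coding feature wholly opposite ERG27, had 35.7, 28.3 and 34.8 unbound and 37.4, 31.5 and 79.2 in the eluates and was not called (limma adjusted p = 0.295). BUD22, which shares 221 bases with ERG5, had a log2 fold change of -2.98 beside the 1.62 of ERG5. What part the overlaps have in the counts of any gene was not tested.

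Features of the sterol sequences themselves followed the fold changes only loosely. Spearman's rho of the log2 fold change was 0.20 with feature length and -0.18 with GC content over the 30 genes, beside 0.05 and -0.12 over 5703 nuclear mRNAs, and with the mean count it was 0.05 and -0.17. The sterol features had a median GC content of 39.2% and a median length of 1733 bases, near the 38.0% and 1641 bases of all mRNAs. A coding sequence can also pair with itself, so the longest perfect inverted repeat (exact complements at least 3 bases apart) was taken for each. Its arms were 7 to 12 bases long in the sterol genes with a median of 10, and the median over 5493 mRNAs was also 10. In ERG5 the arms were 10 bases long, an arm length reached or passed in 56.4% of mRNAs. They are in capitals, on the sense strand (sacCer3, chromosome XIII, minus strand).
ERG5 first arm, chrXIII:301917-301950: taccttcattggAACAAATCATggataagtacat
ERG5 second arm, chrXIII:300906-300939: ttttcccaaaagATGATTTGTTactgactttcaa
By this measure the repeat of ERG5 was as long as that of the median mRNA, and arms of 12 bases were found in HMG1 and UPC2. The longest arm over the 5493 mRNAs was 19 bases, shorter than the duplexes that the paper describes J2 as recognising. The measure therefore cannot decide whether an mRNA pairs with itself in a form that J2 binds, which was not tested. Among features of the same strand, 6 sterol genes share bases with another one, HMG1 37 bases with XUT_13R-52 and ERG9, ERG11, ERG28, ERG5 and HES1 a single base.

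Genes around the pathway were counted under the deposited scaling, where 74.4% of all mRNAs were reduced and 8.00% enriched. Of 19 genes of sterol transport, 13 were reduced and 6 were not called, with a median of -1.04. PDR16, a phosphatidylinositol transfer protein that affects azole tolerance, was lowest at -3.53, and PDR11, a transporter for sterol uptake, highest at 0.26 and not called. Of 5 genes of steryl ester turnover and sterol acetylation, 4 were reduced and 1 was not called, from the steryl ester hydrolase YEH2 at -3.21 to the acetyltransferase ATF2 at -0.62.

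Of 14 genes that regulate sterol synthesis or degrade the reductases, 12 were reduced and 2 enriched, with a median of -2.03. UBC7, the ubiquitin-conjugating enzyme that acts on Hmg2, was lowest at -3.86. HAP1, the haem-responsive transcription factor that acts on several ERG genes, was highest at 0.83 (limma adjusted p = 0.00369), and USA1, a scaffold of the Hrd1 ligase, was the other enriched gene at 0.60. Of 12 genes above the mean on the isoprenoid branches beside sterol synthesis, 9 were reduced and 3 were not called, with a median of -1.14, from COQ2 of ubiquinone synthesis at -3.30 to the tRNA isopentenyltransferase MOD5 at 0.19. The thirteenth, SRT1, had a mean of 11.1.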

How the data were processed

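RNA of 3 J2 eluate and 3 J2 unbound samples, described in the study as biologically independent, was sequenced as single reads of 50 bases after the TruSeq RNA Sample Prep Kit v2. Per the study's methods and the submitters' processing notes, the authors aligned reads with STAR to sacCer3, counted them with featureCounts (Subread 1.5.0-p1) over Ensembl genes plus untranslated regions, CUTs, SUTs and XUTs, and used DESeq2 1.24.0 in R 3.6.1. The strand setting is not given in the sources used here. The values the authors deposited are a signal, read counts per feature divided by a size factor per library (0.565 to 2.03). Whole reads were recovered within 0.05 read for 100% of values in each library. The deposited columns of fold changes and p-values hold the authors' own comparison and were not used. The 47860 lines were collapsed to 15753 features.

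The main test was limma 3.58.1 (lmFit, eBayes with a trend, R 4.3.3) on log2(normalised count + 1), with a pseudocount of 1, eluate against unbound and no block. A fold change on this scale understates the change of low features. On recovered reads, DESeq2 1.42.0 and edgeR 4.0.16 were alternatives. Above the mean of 40, limma called 3520 features enriched and 4891 reduced, DESeq2 3525 and 4872, and edgeR 3766 and 4602. On simulated counts for this comparison (15753 features), limma recovered 90 of 100 features changed 2-fold and 100 of 100 changed 4-fold, and called 4 of 9988 unchanged ones. That simulation used the same dispersion for all features, the known size factors and no replicate effect. Few features were changed, as many up as down, unlike the real libraries. It therefore shows only that the fit runs properly and cannot tell how reliable the calls on the real data are. Deviations of same-numbered eluate and unbound libraries from their group means correlated at 0.228, 0.321 and 0.299 over 10188 features, and the methods describe the unbound RNA as the supernatant of the same precipitation, so the numbers were taken to pair the libraries.

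Coordinates are those of the table. Coding starts and ends matched segments of the table in 5785 of 5792 genes of the R64 reference (99.9%), and in all 30 sterol genes, so sequences were read from it. Protein identity was computed from translated coding sequences with Biopython 1.88. Values by library are given for enriched genes, the 4 lowest and 4 highest fold changes, homologues, ERG1, ERG9, ERG11, ERG20, and genes with an opposite feature above the mean, with that feature. The members and lists were chosen with earlier results of these data known.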

Additional observations from a re-analysis of the deposited data

How the results depend on the processing

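Scaling decided the counts of calls. The sterol median was -1.18 with edgeR, -1.19 with TMM, -0.44 with total counts and -0.034 with nuclear mRNA factors. Total counts gave 8 enriched genes, and nuclear mRNA factors gave 10 enriched and 14 reduced. Under total counts the sign turned for ERG13 (0.50), HMG2 (0.086), ERG7 (0.85), ERG25 (0.033), ERG28 (0.43) and UPC2 (0.51). Under nuclear mRNA factors it turned for ERG13 (0.91), HMG1 (0.40), HMG2 (0.49), ERG8 (0.18), MVD1 (0.20), ERG7 (1.26), ERG11 (0.050), ERG25 (0.44), ERG28 (0.84), ARE2 (0.073) and UPC2 (0.92). ERG7 also turned with edgeR (0.12) and TMM (0.10). Over all mRNAs, 21.5% were enriched and 48.8% reduced under total counts, 33.0% and 37.5% under nuclear mRNA factors. Without the 6 genes that share bases with another feature of their strand, 1 of 24 was enriched and the median was -1.86; fewer genes enter that count. Leaving out each library in turn gave 1 to 2 enriched genes, 22 to 25 reduced genes and a median from -1.44 to -1.27; ERG24 was the gene lost, without unbound 1 or unbound 2. In those fits ERG7 ran from -0.21 to 0.045 and CYB5 from -0.0083 (without eluate 1) to 0.19. Opposite features called enriched were 38 of 49 with no filter on the mean, beside 60.9% of all lncRNA features. Above a mean of 100 they were 15 of 16, but that mean was taken over both groups and favours enriched features. By a mean of the unbound libraries above 40, an alternative chosen after seeing the data, 9 of 10 were enriched. The share of all lncRNA features by that rule was 53.4%. The opposite features include some mRNAs, which the lncRNA shares do not. With the replicate number as a block (replicate block, the pairing of the libraries) 2 genes were enriched and 24 reduced, the median was -1.36, and no call of a sterol gene changed. Pseudocounts of 0.5 and 10 changed no call of a sterol gene, and DESeq2 changed that of ERG28 alone (adjusted p = 0.0619). TMM and edgeR also lost the calls of ERG28 (0.184 and 0.207) and UPC2 (0.185 and 0.203). The cause of these shifts was not tested. With 3 libraries a group, p-values cover only the spread between these samples, and 1 outlying library can weigh heavily on a group of 3. Depth limits HES1 and the scarce opposite RNAs most; some of the latter had fewer than 3 reads in an unbound library.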

Other observations

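Other lipid and cofactor pathways gave counts near those of all mRNAs, of which 74.4% were reduced and 8.00% enriched under the deposited scaling. Of 8 genes of haem synthesis, whose product sits in the cytochromes P450 of the pathway, 7 were reduced and 1 was not called, and the median log2 fold change was -1.54. The uroporphyrinogen decarboxylase HEM12 was lowest at -3.08 and the ferrochelatase HEM15 highest at -0.12, not called. Of 12 genes of fatty acid synthesis and elongation, 9 were reduced, 2 were not called and 1 was enriched, with a median of -1.17. The acyl-CoA synthetase FAA4 was lowest at -2.83, and PHS1, the dehydratase of the elongation cycle, was the enriched gene at 0.68 ± 0.26 (SE, n = 3 against 3, limma adjusted p = 0.0367). Of 13 genes of sphingolipid synthesis, whose products share the membrane with ergosterol, 11 were reduced and 2 were not called, with a median of -1.27, from the hydroxylase SUR2 at -2.92 to the inositol phosphotransferase IPT1 at -0.33.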
